A study of Homo sapiens with 4 samples.

Results

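The zinc finger (ZNF) genes of chromosome 19 are the genes whose symbol is ZNF followed by a number, with at most 1 letter after it, and that lie on that chromosome. Of the 28775 promoters in the count table, 258 belonged to them, 246 of protein-coding genes and 12 of transcribed pseudogenes. A further 274 promoters belonged to ZNF genes on other chromosomes and are used only as background. Promoter accessibility was measured by ATAC-seq, in which the transposase Tn5 inserts sequencing adapters into open chromatin, in HEK293T, a human embryonic kidney cell line. Both groups were wild-type for the endogenous MORC2 gene. The control group (n = 2) received lipofectamine, a lipid transfection reagent, and the overexpression group (n = 2) was transfected with MORC2, carried per the study's methods on a plasmid as a fusion with the fluorescent protein meGFP. The labels mention no empty plasmid for the control, so that plasmid DNA and MORC2 cannot be told apart. How many cells took up the plasmid was not given in the sources used here, nor was it stated whether replicates were separate cultures. The p-values below measure the spread between these libraries, which the main test pooled over promoters and did not take from each promoter alone.

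Most zinc finger proteins of chromosome 19 bind DNA through an array of C2H2 fingers and carry a KRAB domain, which recruits the corepressor TRIM28 and through it the H3K9 methyltransferase SETDB1. Many of them silence transposable elements, and their genes arose by tandem duplication and stand in clusters. MORC2 is an ATPase that acts with the HUSH complex, a reader of H3K9me3, and the 3' ends of many ZNF genes carry that mark themselves.

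Promoter sequences of RefSeq (GRCh38.p14, 250 bases before to 50 after a start) were found for 216 of the 258 genes, and 180 of these had a single listed start. The authors aligned to another assembly, CHM13, so the coordinates here give the place of the sequence and not of a count. The 150 bases before the start are shown for 8 genes: 4 of the pericentromeric cluster 19p12, 3 with the CCAAT word but not the ETS word, and ZNF544, which has neither in this stretch. Capitals mark TCCAATCA, a CCAAT box in a longer word, and CCGGAAG, the core bound by ETS factors, each searched on both strands (the complement of the second reads CTTCCGG).
ZNF430 (chr19:21020507-21020656, plus strand): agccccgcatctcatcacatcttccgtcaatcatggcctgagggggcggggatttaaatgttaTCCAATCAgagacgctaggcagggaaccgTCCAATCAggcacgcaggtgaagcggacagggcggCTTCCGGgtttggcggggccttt
ZNF724 (chr19:23250395-23250544, minus strand): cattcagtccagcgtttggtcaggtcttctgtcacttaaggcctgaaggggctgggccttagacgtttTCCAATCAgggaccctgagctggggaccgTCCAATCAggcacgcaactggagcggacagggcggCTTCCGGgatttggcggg
ZNF91 (chr19:23395472-23395621, minus strand): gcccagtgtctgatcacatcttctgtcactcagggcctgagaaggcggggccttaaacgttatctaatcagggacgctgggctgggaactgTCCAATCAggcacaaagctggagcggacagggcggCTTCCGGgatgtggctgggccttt
ZNF93 (chr19:19900796-19900945, plus strand): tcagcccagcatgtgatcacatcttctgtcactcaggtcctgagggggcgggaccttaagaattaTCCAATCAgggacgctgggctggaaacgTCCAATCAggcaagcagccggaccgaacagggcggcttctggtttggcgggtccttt
ZNF564 (chr19:12551483-12551632, minus strand): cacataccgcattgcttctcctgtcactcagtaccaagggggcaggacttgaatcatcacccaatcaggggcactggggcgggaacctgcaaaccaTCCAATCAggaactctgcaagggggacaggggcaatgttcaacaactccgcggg
ZNF443 (chr19:12441022-12441171, minus strand): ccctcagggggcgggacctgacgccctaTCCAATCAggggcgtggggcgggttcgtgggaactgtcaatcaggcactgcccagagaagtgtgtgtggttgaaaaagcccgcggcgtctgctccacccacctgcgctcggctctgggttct
ZNF563 (chr19:12333634-12333783, minus strand): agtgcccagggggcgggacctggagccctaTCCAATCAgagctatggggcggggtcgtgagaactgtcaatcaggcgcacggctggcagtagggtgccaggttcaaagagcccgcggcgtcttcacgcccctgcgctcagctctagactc
ZNF544 (chr19:58228764-58228913, plus strand): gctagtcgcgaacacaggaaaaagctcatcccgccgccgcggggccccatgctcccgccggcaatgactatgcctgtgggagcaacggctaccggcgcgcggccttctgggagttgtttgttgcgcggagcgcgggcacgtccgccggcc
The 4 sequences of 19p12 were alike. Identity in the aligned 150 bases was 83.4% between ZNF430 and ZNF91, 81.7% between ZNF91 and ZNF93 and 74.4% between ZNF430 and ZNF724. ZNF443 and ZNF563, both on 19p13, shared 76.1%. ZNF564, also on 19p13, shared 49.2% and 48.1% with them, but 58.6% to 61.1% with the 19p12 genes. ZNF443 shared 44.8% to 49.7% with the 19p12 genes, and ZNF544 between 46.4% and 49.2% with each of the others.

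Both words were frequent in these promoters. CCGGAAG stood in 86 of the 180 promoters (47.8%), compared with 34.4% of 163 ZNF promoters on other chromosomes and 13.4% of all 15243 promoters with a single start. TCCAATCA stood in 50 of 180 (27.8%), against 11.0% and 1.86%. The 2 words were picked after a search of these sequences, so these shares are a description. The shorter CCAAT, which TCCAATCA contains, was found in 59.4% of the members and 36.7% of all promoters, and the GC box GGGCGG in 68.3% and 52.6%. TATAAA was rare, at 2.22% of the members and 10.9% of all promoters. The words had preferred places. TCCAATCA, with 71 copies in the 50 promoters, began at a median position of -59 from the start (quartiles -86 and -53.5), and 49 of the 50 promoters held it as written and 1 as its complement. CCGGAAG began at a median of -18, with quartiles of -36 and 1 over its 97 copies in 86 promoters. In ZNF93 the place of the ETS word held no exact match.

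The level of accessibility differed widely among the members. Levels are given as CPM, the count scaled to library size with the trimmed mean of M-values (TMM), over promoter windows of like length. In control cells the median member had 7.88 CPM, with quartiles of 1.44 and 13.9 and a range from 0.204 to 44.0. Below 2 CPM lay 73 members, and 48 had 16 CPM or more. The median over all 28775 promoters, tested or not, was 7.12 CPM and that over the 274 ZNF promoters elsewhere 16.1 CPM. In a bulk sample, fewer cells with an open promoter and fewer insertions per cell cannot be told apart.

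**Figure D1:**
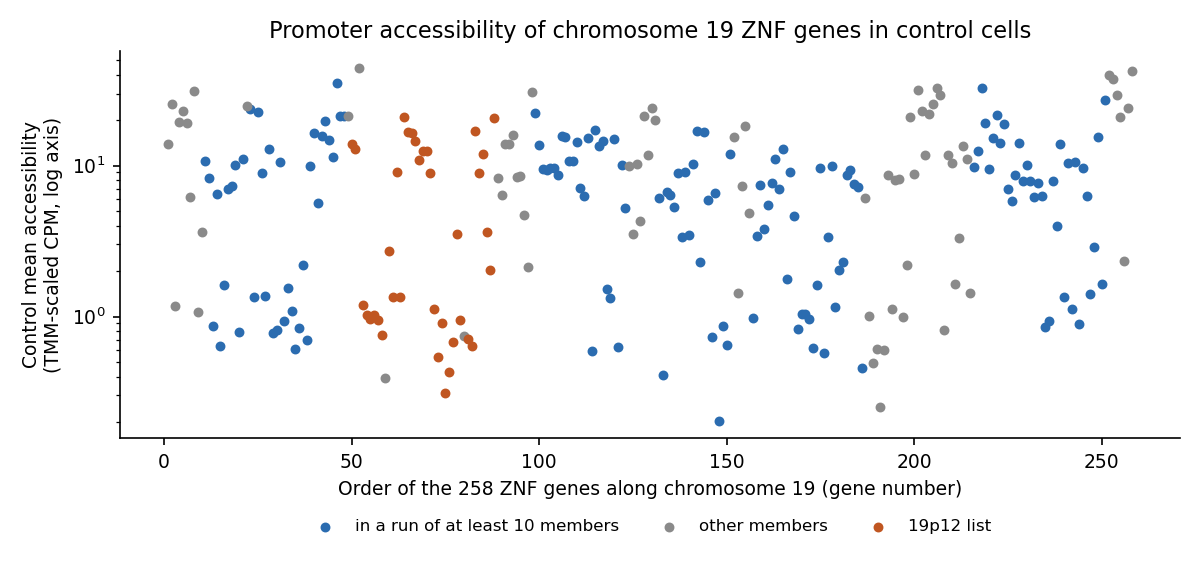
Mean control accessibility (TMM-scaled CPM, log axis, n = 2) of each of the 258 promoters against the order of the genes along chromosome 19. Points are coloured by membership of a run of at least 10 members, of the 19p12 list, or of neither, and members under 2 CPM lie among members of 10 CPM or more.

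The most accessible members were ZNF56P, a pseudogene (44.0 CPM), ZNF446 (42.4 CPM), ZNF497 (39.5 CPM), ZNF837 (37.2 CPM), ZNF564 (35.4 CPM) and ZNF787 (32.6 CPM). ZNF56P had nearly the counts of the neighbouring LINC00663 and ZNF497 those of its antisense ZNF497-AS1, so their windows cannot be told apart. ZNF837, the next member, had counts close to those of ZNF497 (532, 376, 160 and 101 against 598, 376, 165 and 101), so these entries may not be separate signals. The lowest members tested were ZNF439 (0.779 CPM), ZNF812P (0.790 CPM), ZNF69 (0.816 CPM), ZNF610 (0.825 CPM), ZNF763 (0.933 CPM) and ZNF534 (0.959 CPM). In all, 41 members had counts near-equal to a neighbour's (within 10% plus 1 count in every library), 16 of them to another member, as ZNF790 and ZNF345 or ZNF225 and ZNF226.

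Levels were higher where CpG sites were more frequent. Promoters under 2 CPM held a median of 15 CpG sites in their sequence, those of 2 to 8 CPM held 19, those of 8 to 16 CPM held 21 and those of 16 CPM or more held 23. Across the 180 members the Spearman correlation of CpG number with control CPM was 0.33, and across all 15243 promoters it was 0.66, both across promoters, which are not replicates. The ETS word did not go with a higher level among the members, with medians of 8.61 CPM with it and 8.75 CPM without. Over all promoters the medians were 18.3 and 7.34 CPM. Members with both words (22) had a median of 3.58 CPM, those with TCCAATCA alone (28) 11.0, those with CCGGAAG alone (64) 8.72 and those with neither (66) 7.51, and each class spanned levels from under 1 CPM to over 20.

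The pericentromeric 19p12 list shows this spread among related promoters. Its 36 members ranged from 0.311 to 20.9 CPM in control, with a median of 2.38, and 24 passed the filter on low counts. ZNF254 (20.7 CPM), ZNF430 (20.9 CPM) and ZNF724 (16.9 CPM) were open. ZNF93, which binds LINE-1 and SVA elements and whose sequence above is 80.9% identical to that of ZNF430, had 0.958 CPM, and ZNF676 had 0.311 CPM. How many fragments aligned uniquely in this repeated region, after the authors' filter on mapping quality, was not tested.

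Total promoter counts ranged from 3734519 to 10255182 per library, and nuclear ones from 979895 to 4928862. Promoters of 37 mitochondrial genes took 51.9% and 55.6% of all counts in control and 74.7% and 73.8% after transfection with MORC2. The overexpression libraries were shallower for the members, whose median count was 110 and 81.5 in control and 44.5 and 25 in overexpression. Of 9 promoters chosen to be open in HEK293T cells, control levels ran from 1.75 CPM (EYA1, the lowest) to 56.3 CPM, and 6 markers of other cell types ran from 0.227 to 2.97 CPM. Of these 6, 3 had enough counts to be tested, and all 3 were higher in overexpression. MYH7 among them had a log2 fold change of 1.25 (edgeR adjusted p 0.0139), while 0 of the 9 open promoters had an adjusted p under 0.05. The MORC2 promoter itself had 17.0 ± 1.94 CPM in control and 15.4 ± 1.30 CPM (SD, n = 2) in overexpression, which does not measure a plasmid.

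The comparison asked whether MORC2 overexpression altered the accessibility of these promoters. Of 218 members with enough counts to be tested, accessibility rose at 2, ZNF544 and ZNF724, and fell at 1, ZNF524 (edgeR quasi-likelihood test, Benjamini-Hochberg adjusted p under 0.05). Over all 23407 promoters tested, 2.47% passed, 1.16% rising and 1.31% falling, so 3 of 218 was not above the background. At an unadjusted p under 0.05, 20 members passed, 15 higher and 5 lower, beside 17.2% of all promoters (8.64% higher and 8.59% lower). The other 40 members had too few counts, with control levels from 0.204 to 1.12 CPM, and 6 of them had no count in at least 1 library.

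**Figure D2:**
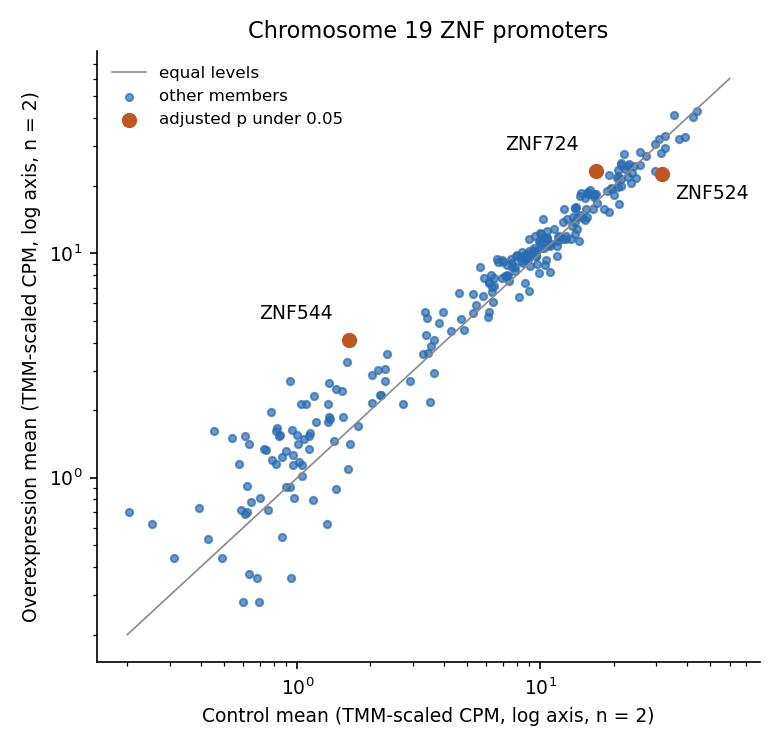
Mean overexpression accessibility against mean control accessibility (TMM-scaled CPM, log axes, n = 2 each) for members with a count in overexpression, with the line of equal levels. ZNF544 and ZNF724 lie above the line and ZNF524 below it; most other members lie close to it, with a wider scatter under 2 CPM.

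ZNF524 (Entrez 147807) codes for a short zinc finger protein without a KRAB domain that has been linked to telomeres. It had 32.1 and 31.4 CPM in control (449 and 325 counts) and 22.5 and 22.7 CPM in overexpression (120 and 66 counts). Both overexpression libraries lay below both controls. The log2 fold change was −0.49, with an SE of 0.131 (edgeR adjusted p 0.0168). The neighbouring promoter of FIZ1 had near-equal counts, so the signals of these promoters cannot be told apart. It no longer passed when any 1 library was omitted (edgeR adjusted p from 0.0531 to 0.218) or with DESeq2 (adjusted p 0.434), upper-quartile scaling (0.0563) or loess scaling (0.220). Over all alternatives its adjusted p ran from 1.46e-17 to 0.434. The lowest came from scaling by library totals, which hold the mitochondrial counts and called 69.7% of all promoters.

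ZNF724 (Entrez 440519) is a member of the 19p12 list. Its levels were 17.1 and 16.7 CPM in control (239 and 173 counts) and 23.4 and 23.0 CPM in overexpression (125 and 67 counts). The groups did not overlap, with a log2 fold change of 0.46 (SE 0.140) and an edgeR adjusted p of 0.0467. When any 1 library was omitted the adjusted p was between 0.162 and 0.316, and it was 0.635 with DESeq2 and 0.0595 with loess scaling, within a range over all alternatives from 0.0159 to 0.635. Scaling by library totals, which hold the mitochondrial counts, turned the direction to −0.34.

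ZNF544 (Entrez 27300), in the last large cluster of the long arm, rested on few counts. Control counts were 31 and 11 (2.22 and 1.06 CPM), against 22 and 12 after transfection (4.12 CPM in both). The groups did not overlap, although the ratio between the 2 control values was larger than that between control replicate 1 and either overexpression library. The log2 fold change of 1.26, SE 0.365, had an edgeR adjusted p of 0.0360. Without control replicate 2 the log2 fold change was 0.89 (edgeR adjusted p 0.341) and without control replicate 1 it was 1.94 (adjusted p 0.0463). It was lost without either overexpression library (adjusted p 0.281 and 0.187) and with DESeq2 (0.643), and its range over all alternatives was 0.0131 to 0.643.

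The other members named here did not pass; they are those with the smallest p in each direction among members whose groups did not overlap. For ZNF763, counts were 18 and 6 in control against 14 and 8 after transfection, and the log2 fold change of 1.43 (SE 0.454) had an edgeR adjusted p of 0.0590 (0.0490 with upper-quartile scaling and 0.0282 with limma-voom). ZNF780A had 9.86 and 10.6 CPM in control and 13.7 and 14.8 in overexpression (log2 fold change 0.46, edgeR adjusted p 0.132). ZNF581 and ZNF439 had log2 fold changes of 0.33 and 1.30, with edgeR adjusted p of 0.141 and 0.152. ZNF439, with 11 and 8 counts in control against 10 and 6, passed the filter on low counts only through the overexpression libraries. ZNF763 too passed only with their help, so neither rise is independent of the filter. In the other direction, ZNF444, a SCAN-domain protein, went from 28.3 and 30.7 CPM to 20.2 and 26.1 CPM (log2 fold change −0.39, edgeR adjusted p 0.0801). ZNF497, ZNF846, ZNF837 and ZNF420 had log2 fold changes of −0.30, −0.48, −0.23 and −0.32 (edgeR adjusted p from 0.143 to 0.339). The counts of ZNF497 and ZNF837 were close, and equal in control replicate 2 and overexpression replicate 2, so their falls may not be separate. ZNF557, added after its values were seen, had a smaller p than most of these, but its groups overlapped, at 20.2 and 18.1 CPM in control against 11.6 and 18.9 CPM (log2 fold change −0.44, edgeR adjusted p 0.102).

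**Figure D3:**
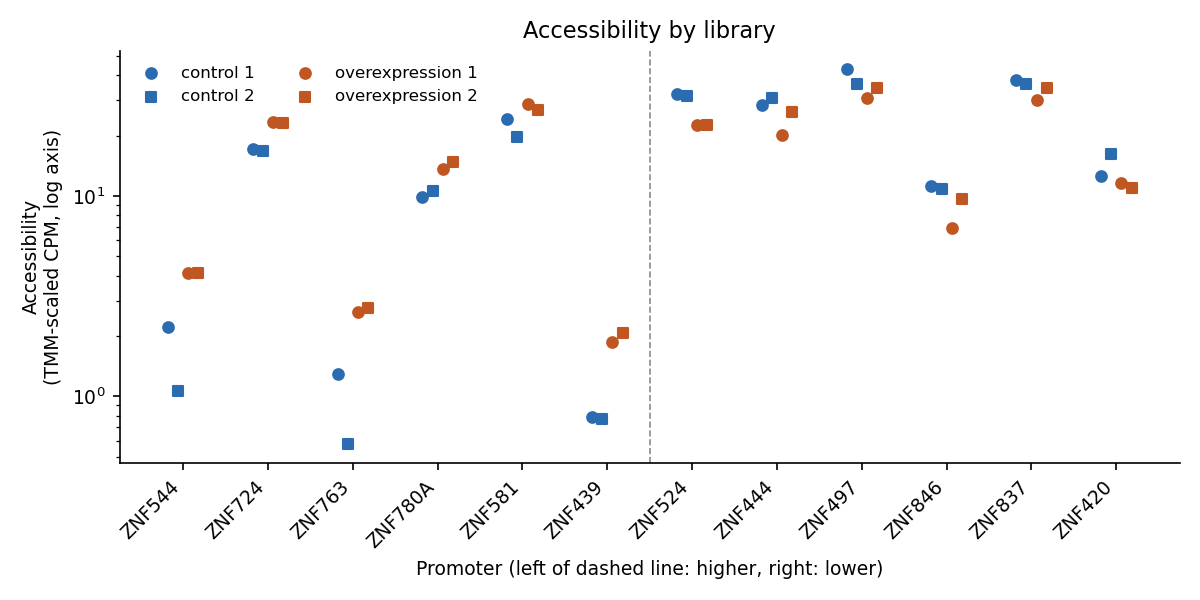
Accessibility (TMM-scaled CPM, log axis) in each of the 4 libraries of the 6 promoters with the smallest p among those higher in overexpression (left of the dashed line) and the 6 among those lower (right). In all 12 the groups do not overlap, as their choice required; the 2 control values of ZNF544 and ZNF763 lie far apart.

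Of the members with a known role, none of those tested passed. Of those that bind transposable elements, ZNF91 had 8.90 ± 1.06 CPM in control and 9.44 ± 1.71 (SD, n = 2) in overexpression, and ZNF611 had 9.88 ± 1.70 and 11.4 ± 3.88. ZNF808 had 1.62 ± 0.166 and 1.09 ± 0.572, a log2 fold change of −0.40 with an SE of 0.515. ZNF274, which recruits SETDB1 to the 3' ends of ZNF genes, had 15.4 ± 1.03 and 15.7 ± 1.08 CPM, a log2 fold change of 0.02 (SE 0.158). ZNF473, which acts in histone pre-mRNA processing and had counts near-equal to those of VRK3, had 18.2 ± 1.91 and 15.7 ± 1.32. The imprinted ZNF331 had 2.19 ± 0.171 and 2.34 ± 0.394. ZNF224, ZNF382, ZNF507 and ZNF536 had log2 fold changes of 0.12, 0.09, −0.09 and 0.18, each smaller than its SE. The counts of ZNF382 were near-equal to those of the neighbouring ZNF529, so these promoters cannot be told apart. ZNF93 and ZNF154 had too few counts to test. The precision depended on abundance. When all promoters tested were cut into 4 bins of equal number by mean abundance, the median SE of the members went from 0.477 in the lowest bin to 0.130 in the highest.

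Below the threshold the members leaned upwards. Log2 fold changes were above 0 at 152 and below 0 at 66 (69.7% above 0, beside 51.3% of all promoters tested), with a median of 0.10 and quartiles of −0.04 and 0.25, beside a median of 0.01 over all promoters, −0.04 over ZNF promoters elsewhere and 0.06 over the other promoters of chromosome 19. In 72 members both overexpression libraries lay above both controls and in 31 below, and 115 overlapped. Scaling by library totals turned the median to −0.69, but relative to all promoters it was 0.09 with either scaling. Over all promoters 24.8% lay above and 24.9% below, 49.7% in all. The filter on low counts could be passed through 1 group alone, as by ZNF439, and its part in the lean was not tested. Without a filter the median over all 258 members was 0.09.

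Fold changes ran with abundance in the whole table, and most members are of low or middle abundance. In the lowest bin the median was 0.37 over 43 members and 0.39 over all promoters of the bin, and in the next it was 0.14 over 99 members and 0.13 over all. In the upper bins the medians were 0.03 over 51 members against −0.05, and −0.03 over 25 members against −0.13. The members thus lay close to all promoters of the same bin in the lower bins and above them in the upper ones. Within the upper bins the members were less abundant, with control medians of 15.5 against 17.0 CPM and 27.1 against 31.0 CPM. The part of this difference was not tested. ZNF promoters elsewhere had medians of −0.04 and −0.07 in these bins. With loess scaling, which removes a trend with abundance, the median of the members was 0.043. By edgeR 0 then passed, beside 0.226% of all promoters tested. With the DESeq2 test 0 passed too, beside 0.222%, and limma-voom called 4, beside 3.08%. At an unadjusted p under 0.05 there were 25 members with loess scaling and 5 with DESeq2. The share of all promoters at that unadjusted threshold was not taken for these fits, so these counts have no background beside them.

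**Figure D4:**
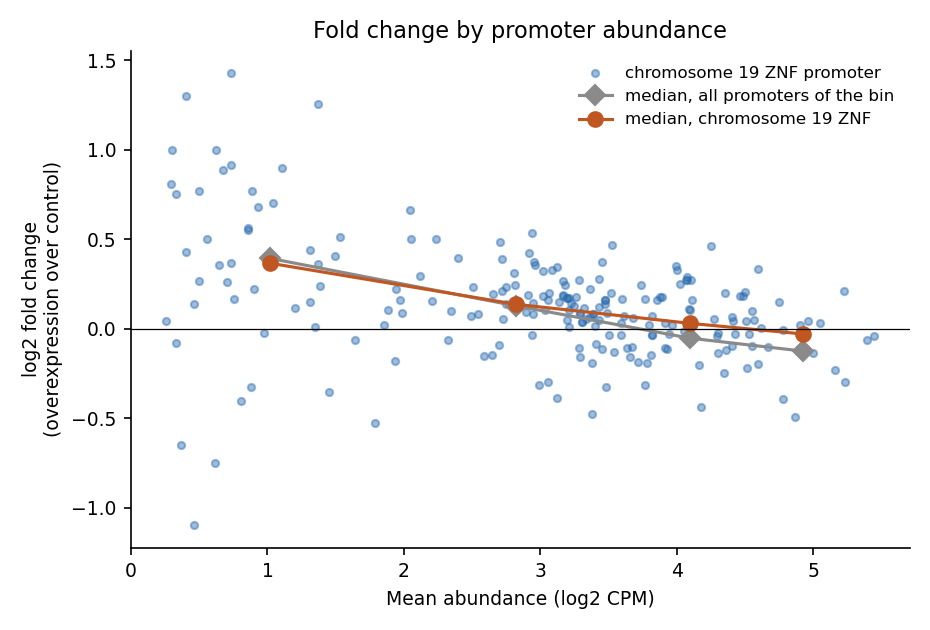
Log2 fold change of overexpression over control against mean abundance (log2 CPM) for the 218 members tested, with the medians in each of 4 abundance bins for the members and for all promoters. Both lines fall from 0.37 and 0.39 to −0.03 and −0.13, close together in the lower bins and apart in the upper ones.

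The share of nuclear promoter counts, which needs no scaling, was taken over all 258 members. It was 0.689% (95% Wilson interval 0.681 to 0.696) and 0.686% (0.678 to 0.695) in control, and 0.721% (0.709 to 0.734) and 0.777% (0.760 to 0.795) after transfection. These intervals cover counting error only. Both overexpression libraries lay above both controls, with means of 0.688 ± 0.00161% and 0.749 ± 0.0396% (SD, n = 2) and a ratio of 1.09, at an exact permutation p of 0.333 (two-sided), the smallest that 2 against 2 allow. The overexpression replicates differed from each other by nearly as much as the groups did. ZNF promoters elsewhere held 1.44%, 1.45%, 1.45% and 1.44% in the same order of libraries (exact permutation p 0.667). The rest of chromosome 19 held 5.05%, 5.07%, 4.92% and 5.32% (exact permutation p 1.0), and here too the second overexpression library, the shallowest, was the highest.

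**Figure D5:**
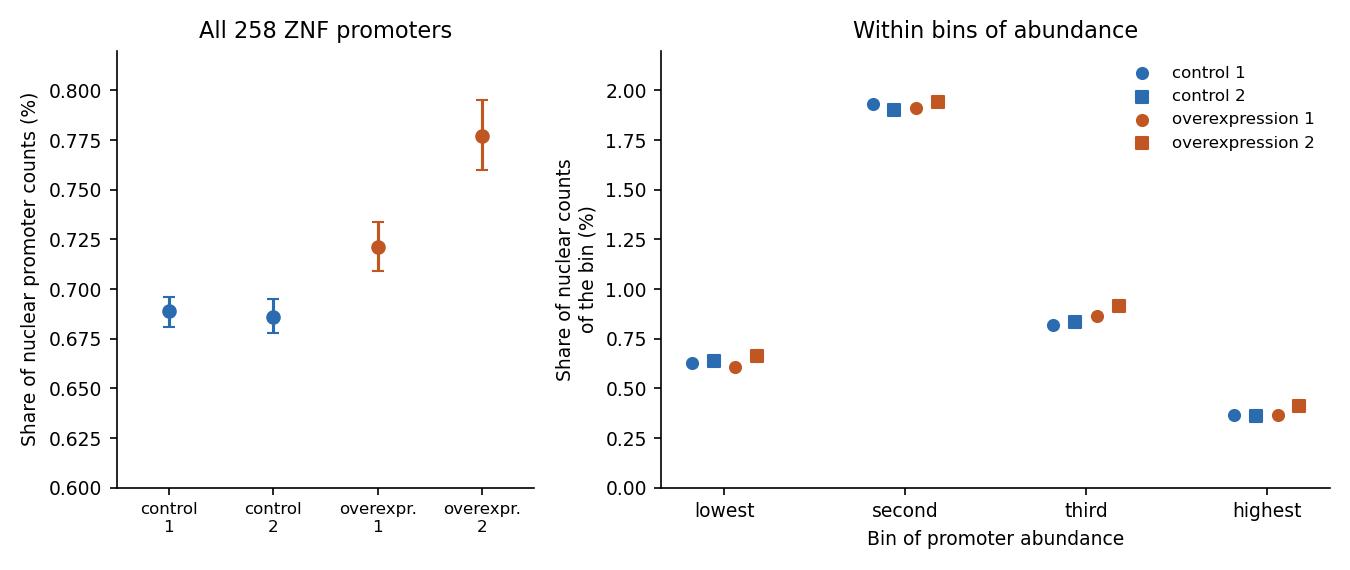
Left, the percent of nuclear promoter counts in the 258 members in each library, with 95% Wilson intervals (the axis does not start at 0). Right, the same percent within each of the 4 abundance bins, where overexpression replicate 2 is the highest of the libraries in every bin.

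Within abundance bins, the groups did not overlap in the upper 2. In the lower of these the share was 0.818% and 0.836% in control and 0.866% and 0.914% in overexpression. In the highest bin 0.367% and 0.362% stood against 0.369% and 0.413%, so overexpression replicate 1 lay close to the controls and only replicate 2 stood apart. No interval was taken within bins. For 2 against 2 libraries, non-overlap corresponds to an exact permutation p of 0.333 (two-sided). The groups overlapped in the lowest bin, at 0.629%, 0.639%, 0.607% and 0.662%, and in the next, at 1.93%, 1.90%, 1.91% and 1.94%. Taken between single libraries, the median log2 ratio of the members was 0.0633 and 0.0464 for overexpression replicate 1 over the controls, 0.158 and 0.155 for replicate 2, and 0.0832 for replicate 2 over replicate 1.

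Clusters were taken as runs of members with at most 5 other genes between neighbours. There were 44 runs, 7 of them with at least 10 members, which held 148 members together. From ZNF283 to ZNF180 (20 members, 15 tested) all 15 fold changes were above 0, with a median of 0.23, and 8 members lay above both controls. Over all promoters tested 51.3% were above 0 and 24.8% lay above both controls. In the abundance bin that holds the cluster's median level of 6.01 CPM, 67.1% were above 0 and 2063 of 5852 lay above both controls. ZNF235 in this run had control counts of 93 and 68 against 53 and 26 after transfection (log2 fold change 0.53, edgeR adjusted p 0.164), and ZNF222 had 0.66 (edgeR adjusted p 0.206). No member of the run passed, and pairs such as ZNF230 and ZNF223 had near-equal counts.

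The other large runs gave medians between 0.07 and 0.20. ZNF627 to ZNF791 (26 members, 23 tested) had a median of 0.20 with 15 members above both controls and 2 below (24.8% and 24.9% over all promoters). In the abundance bin that holds this run's median level of 9.43 CPM, 2063 of 5852 lay above and 696 below. ZNF699 to ZNF846 (11 members, 9 tested) had a median of 0.19. ZNF566 to ZNF573 (25 members) had 0.07, ZNF577 to ZNF836 (10 members) 0.09, ZNF766 to ZNF702P (20 members) 0.11, and ZNF264 to ZNF8 (36 members), which holds ZNF544, 0.12. The 19p12 list had a median of 0.09, with 17 of 24 above 0 and ZNF724 its single member past the threshold.

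Members known to lack a KRAB domain, 22 by a list from general knowledge, were the more accessible ones. Their median control level was 21.1 CPM, against 7.32 CPM for the other 236. Of the 22, 8 fold changes were above 0 (36.4%) and 14 below, with a median of −0.03, and ZNF524 fell. Among all promoters tested, 39.3% were above 0 in the third abundance bin, which holds the list's median level, and 20.8% in the highest. Of the 196 others tested, 73.5% were above 0, with a median of 0.11, and ZNF544 and ZNF724 rose. In the second bin, which holds the 7.32 CPM of the other 236, 67.1% of all promoters were above 0. Whether all of these 236 carry the domain was not checked. The list was written with the values known, its members are the more abundant ones, and the part of abundance was not tested.

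Genes that act with KRAB zinc finger proteins or with MORC2 were taken as a second list. Of 26 such promoters, median control level 16.9 CPM, 0 passed in edgeR, DESeq2 or limma-voom. At an unadjusted p under 0.05 there were 6, 3 and 4 by these tools, in edgeR 1 higher (UHRF1, which reads methylated DNA, log2 fold change 1.10) and 5 lower, beside 17.2% of all promoters in edgeR. That share was not taken for DESeq2 or limma-voom. Log2 fold changes were below 0 at 22 of 26, with a median of −0.16, and at 11389 of all 23407 promoters tested. In the third abundance bin, which holds the list's median level, 3549 of 5851 promoters were below 0, and in the highest 4635 of 5852. TRIM28, the KRAB corepressor, had 32.2 and 34.9 CPM in control against 27.5 and 24.1 CPM after transfection (log2 fold change −0.35, SE 0.126, edgeR adjusted p 0.103). The H3K9 methyltransferase SUV39H2 likewise had −0.35 (edgeR adjusted p 0.0707). The median level of the list lies in the upper abundance bins, where the median of all promoters was below 0 too. The part of abundance was not tested.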

How the data were processed

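ATAC-seq libraries of HEK293T cells (2 control, 2 overexpression) were compared at promoters. Per the study's methods, the authors trimmed reads, aligned them with Bowtie2 to the CHM13 assembly, kept properly paired reads above a minimum mapping quality and used Picard against duplicates. The deposited table holds raw counts per promoter, in windows around the start of each Entrez gene. Midpoint counting is stated for smaller windows only. Per the submitters' processing notes MACS2 and deepTools were also used; the peak lists were not used here, since no gene annotation of that build was at hand.

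Symbols came from a RefSeq table (GRCh38.p14) by Entrez identifier, which left 12 promoters unnamed, and that table was used only for names and gene order. Members, gene lists, motif words and named promoters were chosen with earlier results of these data known. Named promoters were those past the threshold, the 6 higher and 6 lower with the smallest p among non-overlapping ones, the 6 highest and 6 lowest tested in control, and 12 with a known role. Domain and finger matches in proteins were planned but not run, for want of protein sequences, and a list of 22 genes without KRAB took their place.

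Promoters were kept by filterByExpr (23407 left), library sizes recomputed, and libraries scaled by TMM. Testing used the quasi-likelihood F-test of edgeR 4.0.16 (legacy form, R 4.3.3, two-sided, no covariate) on all promoters, adjusted by Benjamini-Hochberg and called under 0.05. SEs are the fold change divided by the root of F. The common coefficient of biological variation was 4.28% and the prior degrees of freedom infinite. A promoter's own spread thus did not enter its test, which used a spread shared by promoters of like abundance. DESeq2 1.42.0 (no independent filtering) and limma 3.58.1 (voom) were alternatives. Shares of nuclear counts were compared by exact permutation over libraries (scipy 1.17.1). Nuclear counts per library, from 979895 to 4928862 within totals from 3734519 to 10255182, set the depth at the members. Abundance bins were cut over all promoters tested.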

Additional observations from a re-analysis of the deposited data

How the results depend on the processing

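The number of members past the threshold (3, beside 2.47% of all promoters) was 5 at an adjusted p under 0.1, beside 5%. It was 164 with library totals (all lower, beside 69.7% of all promoters called). With loess scaling it was 0 (0.226% of all), and 0 with loess scaling without mitochondrial promoters (chosen after seeing the data). The DESeq2 test gave 0 (0.222% of all). At an unadjusted p under 0.05 it had 5 members and each loess fit 25, with no share of all promoters taken at that threshold. The number was 2 to 4 with DESeq2 size factors, upper-quartile scaling (3 that rose, without ZNF524), both other filters, limma-voom and without mitochondrial promoters. In these settings 1.96% to 3.08% of all promoters passed. Leaving out 1 library gave 0 to 1, ZNF544 without control replicate 1 and ZNF557 without overexpression replicate 2, a lone library being assumed to vary like the other group. Replicate numbers were shared, but deviations of same-numbered libraries correlated at 0.05 over 14976 promoters, so the numbers were not taken to pair them, and the replicate block gave 1 (ZNF524).

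The median log2 fold change of 0.10 was 0.043 under loess scaling, −0.69 under library totals and 0.18 under upper-quartile scaling, and 0.07 to 0.14 when a library was left out. Relative to the median of all promoters it stayed above 0 in every alternative run, from 0.05 to 0.15. The difference in share, 0.0617 percentage points, was 0.0338 to 0.0897 when a library was left out, the lowest without overexpression replicate 2. The corepressor list had 2 past an adjusted p of 0.1 and 25 with library totals, and 0 otherwise. Of the named promoters, library totals turned the direction of ZNF724 (−0.34), ZNF780A (−0.33), ZNF581 (−0.46), ZNF564 (−0.58), ZNF610 (−0.025), ZNF534 (−0.74), ZNF91 (−0.74), ZNF611 (−0.70), ZNF274 (−0.77), ZNF331 (−0.65), ZNF224 (−0.67), ZNF382 (−0.70) and ZNF536 (−0.62), since these totals hold the mitochondrial counts. Some turned under other settings too, none past the threshold there. ZNF56P came to 0.041 and ZNF446 to 0.017 with upper-quartile scaling. With loess scaling ZNF56P was 0.11, ZNF446 0.085, ZNF534 −0.36, ZNF91 −0.023 and ZNF331 −0.26, and without mitochondrial promoters as well ZNF56P was 0.11, ZNF446 0.079, ZNF91 −0.020 and ZNF331 −0.29. Without a filter ZNF274 was −0.0039. Leaving out 1 library gave both signs for ZNF91 (−0.10 to 0.27), ZNF274 (−0.053 to 0.10), ZNF56P (−0.16 to 0.061), ZNF611 (−0.23 to 0.48), ZNF812P (−1.23 to 1.31), ZNF331 (−0.086 to 0.26), ZNF507 (−0.18 to 0.037), ZNF536 (−0.040 to 0.40), ZNF534 (−0.75 to 0.84, tested in 2 of these fits), ZNF224 (−0.062 to 0.37) and ZNF382 (−0.038 to 0.27). For the other changes the cause was not tested. The medians by KRAB match were not run, since no protein sequences were used. Depth limits members under 2 CPM most.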
